A study of Homo sapiens with 3 samples.

Results

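The genes described here are 34 genes of protein folding and quality control in the endoplasmic reticulum (ER) and of the unfolded protein response, measured in HCT116, a human colorectal carcinoma cell line. They were taken from a fixed list of symbols and set apart by role into 15 chaperones and folding enzymes, 10 sensors and factors, and 9 genes of ER-associated degradation, the translocon subunit SEC61B included. The array annotation gave 33 of the 34 at least 1 probe set that names no other gene, 78 probe sets in all of 41091, and 33 genes of 19775. SYVN1, the ubiquitin ligase of ER-associated degradation, shared its probe set with a microRNA gene and was not analysed here. The cells had received lentivirus with a short hairpin RNA against UHRF1, either UHRF1 shRNA-2 (UHRF1_sh2, 1 array, called hairpin 2) or UHRF1 shRNA-5 (UHRF1_sh5, 1 array, called hairpin 5), or a scrambled hairpin (Scr_shRNA, 1 array, the control). All were infected, kept under puromycin for 6 days and collected, so the control carries virus and selection too. UHRF1 reads hemimethylated DNA and histone H3 and is needed to maintain DNA methylation, and the study looked for genes whose expression follows its loss.

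Proteins that enter the ER fold there with the help of HSPA5 and other chaperones, lectins and disulphide isomerases. When unfolded proteins build up, 3 sensors in the ER membrane respond: ERN1 splices the mRNA of the transcription factor XBP1, EIF2AK3 slows translation by phosphorylating eIF2alpha, and ATF6 moves to the Golgi, where it is cut to release a transcription factor. Their targets include ER chaperones and the machinery of ER-associated degradation, which returns misfolded proteins to the cytosol for the proteasome.

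Each value is an RMA expression value on the log2 scale, and a difference is a hairpin minus the control on that scale. A difference of 1 is thus 2-fold. The targeted gene came first. UHRF1 read 6.20 with hairpin 2 and 6.67 with hairpin 5, against 8.54 in the control, which was 5.09-fold and 3.68-fold lower. Epithelial markers of the line were high: the lowest of 8 read 6.48 with hairpin 2, 6.33 with hairpin 5 and 6.16 in the control, and the medians of their differences were 0.15 with hairpin 2 and 0.19 with hairpin 5. As the mean of the hairpins, 1 of the 8 was at least 1.5-fold higher, KRT8 (0.41 and 0.86), against 2.38% of all genes tested. CDH1 (0.98 and 0.17) lay just under that line, and both were named after their values were seen. Of the 8, both hairpins read above the control for 3 and below it for 2. The part of these differences in the results below was not tested. Of 7 leukocyte markers on the array, the highest read 3.48, 3.31 and 3.18 with hairpin 2, hairpin 5 and the control, and the defining marker PTPRC read 2.55, 2.75 and 2.51, near the lower quartile of each array (2.54, 2.59 and 2.57). Of 8 fibroblast and endothelial markers, COL1A1 was the exception to low readings, at 6.39 and 5.75 with the hairpins against 5.82 in the control. The number of arrays limits the precision of every value, and nothing in the labels says whether the arrays came from separate cultures repeated over time. In bulk RNA, fewer cells of a type and less RNA per cell cannot be told apart.

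Where a gene had several probe sets, the brightest on average is the one given, unless another is named. All 33 measured members lay at or above the level set for testing, a mean of 3.28, which 11865 genes reached. No member passed limma's moderated test of the 2 hairpins against the control after Benjamini-Hochberg adjustment over all 11865 genes (0 of 33, background 0%), and their lowest adjusted p was 0.999. Without adjustment, at p under 0.05, 2 members were lower, ATF6 and CREB3L2 (background 1.57%), and 0 were higher (background 0.767%). The differences below are therefore sizes with the spread between the hairpins, not called changes.

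Taken one hairpin at a time, the members lay further below the control with hairpin 5. Over the 33, the median was −0.05 for hairpin 2 and −0.28 for hairpin 5, while all genes tested had medians of 0.03 and −0.06. With hairpin 5, 9 of 33 members were at least 1.5-fold lower, against a background of 9.79% of genes tested, and 0 were 1.5-fold higher (background 2.84%). The 9 were DNAJB9, DNAJC3, ERN1, EIF2AK3, ATF6, CREB3L2, HERPUD1, EDEM1 and EDEM2. With hairpin 2, 3 members were at least 1.5-fold lower (background 3.14%), HSPA5, ATF6 and CREB3L2, and WFS1 was the 1 member that was 1.5-fold higher (background 5.93%). At 2-fold, 4 members were lower with hairpin 5 (background 1.94%) and 1 with hairpin 2 (background 0.573%), while 0 were higher with hairpin 5 (background 0.253%) or hairpin 2 (background 1.15%). The hairpins share the single control array, so a high or low reading on it enters both differences.

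As the mean of the hairpins, 3 of 33 members were at least 1.5-fold lower, DNAJB9, ATF6 and CREB3L2 (background 4.12%), and 0 were 1.5-fold higher (background 2.38%). The count of lower members was 0 with all probe sets of a gene averaged. It was 1 of 26 without probe sets ending in _x_at or _s_at, and 5 with median centring. Without the hairpin 2 array it was 9, with a background of 9.79%. The shares of all genes were not counted under the other alternatives. ATF6 was the 1 member that was 2-fold lower (background 0.624%), and 0 were 2-fold higher (background 0.447%). Both hairpin arrays read below the control for 16 of 33 members (48.5%, background 32.3%) and above it for 6 (18.2%, background 29.0%). The 16 included 7 of 15 chaperones, 4 of 10 sensors and factors and 5 of 8 genes of ER-associated degradation. The share of members below the control was above the background, a difference that was not tested. Many differences were small. Some members had both hairpins within 0.2 of the control, and the share of all genes tested that did so was not counted.

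**Figure D1:**
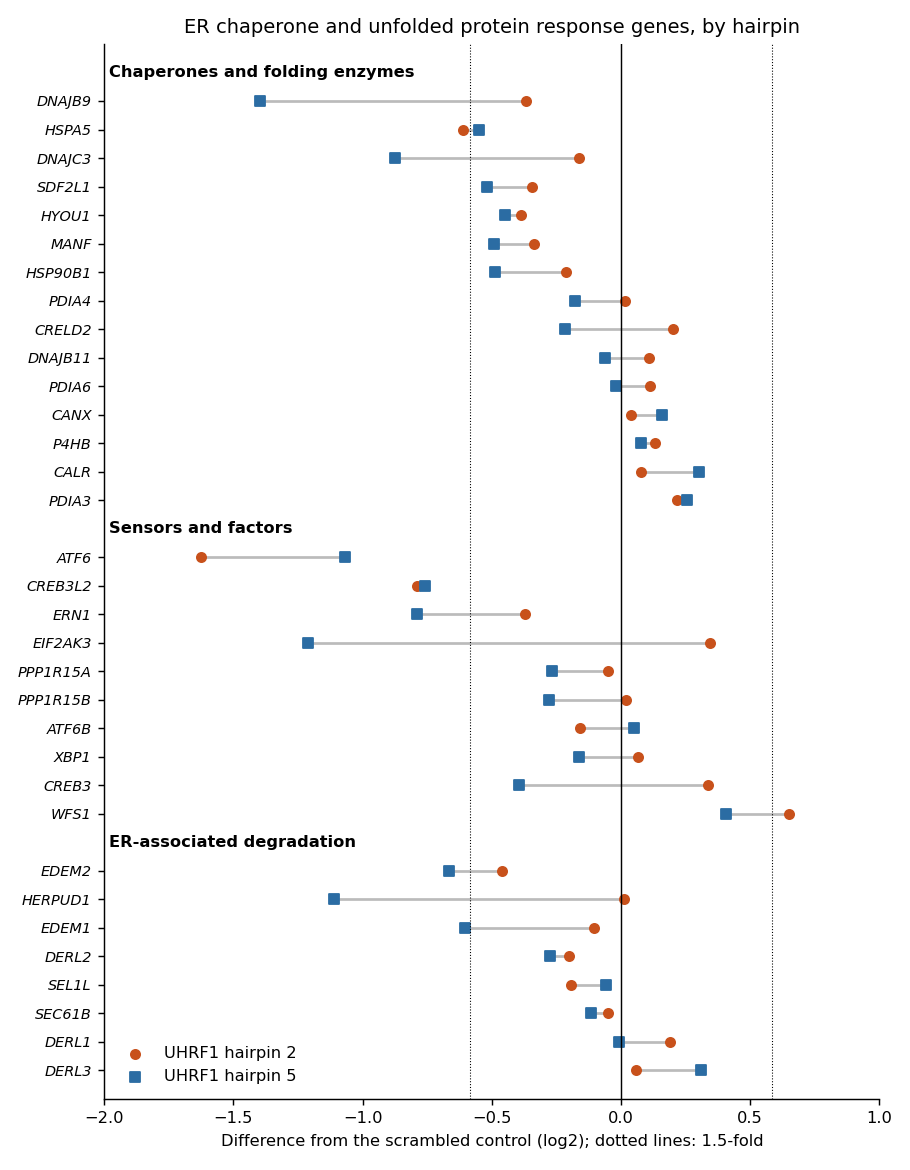
Difference from the scrambled control (log2, horizontal axis) for the 33 measured members, grouped by role and ordered by the mean of the hairpins, with 1 array per point, circles for hairpin 2 and squares for hairpin 5. ATF6 and CREB3L2 have both points left of the 1.5-fold line, EIF2AK3 and HERPUD1 have widely separated points, and WFS1 lies furthest to the right.

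**Figure D2:**
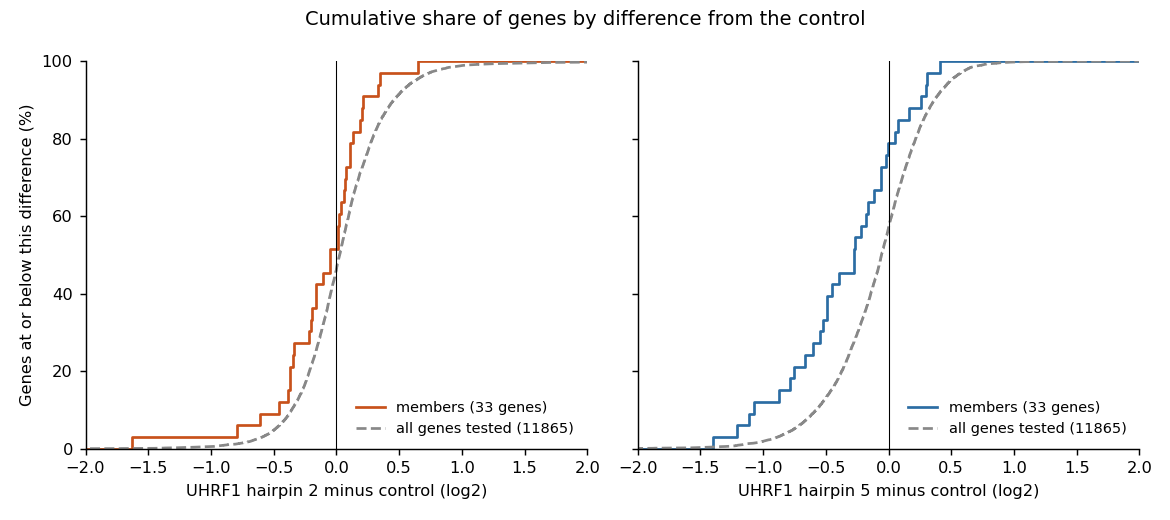
Cumulative share of genes (percent, vertical axis) at or below each difference from the control (log2, horizontal axis) for the 33 members (solid) and the 11865 genes tested (dashed), with hairpin 2 on the left and hairpin 5 on the right. The gap between the curves is wider with hairpin 5, where the medians are −0.28 for members and −0.06 for all genes tested.

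Among the chaperones, HSPA5 and a small set of lumenal partners read below the control with both hairpins by similar amounts. HSPA5, the Hsp70 chaperone of the ER lumen that also holds the sensors inactive, read 10.27 with hairpin 2 and 10.33 with hairpin 5, against 10.88 in the control. Both hairpin arrays were thus 1.53-fold and 1.46-fold lower, and the mean difference was −0.58 ± 0.04 (SD, n = 2 hairpins). Its second probe set gave 6.41 and 6.36 with the hairpins against 6.95 in the control, a mean difference of −0.56. The moderated fit gave HSPA5 a 95% interval from −1.24 to 0.08, so 0 was not outside it.

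HYOU1, the nucleotide exchange factor that resets HSPA5, read 7.92 and 7.86 with hairpins 2 and 5, against 8.31 in the control (mean difference −0.42 ± 0.04). SDF2L1, an ER lumen protein that works with J-domain co-chaperones of HSPA5, read 8.72 and 8.54 against 9.06 in the control (−0.43 ± 0.12). MANF, a small ER-resident and secreted protein induced by ER stress, read 9.004 and 8.850 with the hairpins against 9.340 in the control (−0.41 ± 0.11). In each of these the hairpin arrays lay close together, and both read below the single control array. Both hairpins also read below it for 32.3% of all genes tested. The unadjusted p in limma was 0.17 for HYOU1, 0.167 for SDF2L1 and 0.181 for MANF. HSP90B1, the Hsp90 of the ER, read 7.28 and 7.01 against 7.50 in the control (−0.35 ± 0.19). That value comes from a probe set of the _x_at kind, whose probes can match other transcripts, because the HSP90B1 probe sets without that suffix named a microRNA gene as well. A second HSP90B1 probe set of that kind read 3.16 with hairpin 2 and 3.04 with hairpin 5, against 2.97 in the control.

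On their brightest probe sets, the lectin chaperones and the main disulphide isomerases did not read below the control with both hairpins. CALR, the calcium-binding lectin calreticulin, read 7.83 and 8.05 with the hairpins against 7.75 in the control (mean difference 0.19 ± 0.16). Its membrane-bound relative CANX read 9.60 and 9.73 against 9.57 in the control (0.10 ± 0.09). PDIA3, the isomerase that works with these lectins, read 9.08 and 9.12 against 8.87 in the control (0.23 ± 0.03), and P4HB, protein disulphide isomerase itself, read 10.73 and 10.67 against 10.59 (0.10 ± 0.04). For these 4 genes both hairpin arrays read above the control by small amounts on that probe set. For CALR and PDIA3 the direction turned when all their probe sets were averaged, to −0.05 and −0.15 for CALR with hairpins 2 and 5 and to −0.20 and −0.37 for PDIA3. The isomerases PDIA4 (0.01 and −0.18 with hairpins 2 and 5) and PDIA6 (0.11 and −0.02, with a mean over its probe sets of −0.15) lay on both sides of the control, as did the HSPA5 co-chaperone DNAJB11 (0.11 and −0.06) and the ER stress-inducible protein CRELD2 (0.20 and −0.22).

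On their brightest probe sets, a pair of J-domain co-chaperones were further below the control with hairpin 5. DNAJB9, which binds HSPA5 and helps to keep ERN1 inactive, read 4.91 with hairpin 2 and 3.89 with hairpin 5, against 5.28 in the control, or 1.29-fold and 2.64-fold lower. DNAJC3, a lumenal co-chaperone of HSPA5, read 6.24 and 5.53 with the hairpins against 6.41 in the control, or 1.12-fold and 1.83-fold lower. The hairpins differed from each other by 1.03 for DNAJB9 and 0.71 for DNAJC3, so their means carry large spreads (−0.88 ± 0.73 and −0.52 ± 0.50). The other 2 DNAJB9 probe sets turned the order of the hairpins. They stood at −0.51 and −0.27 with hairpin 2 and −0.20 and −0.17 with hairpin 5. They read from 2.525 to 3.318, around the array medians of 2.977 with hairpin 2, 3.044 with hairpin 5 and 3.002 in the control. Whether probe sets at that level detect the transcript was not tested. Averaged over its 4 probe sets, DNAJC3 stood at 0.02, with the dimmer ones reading from 2.414 to 3.399, also around those medians. Over all 15 chaperones the median was 0.01 for hairpin 2 and −0.22 for hairpin 5.

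**Figure D3:**
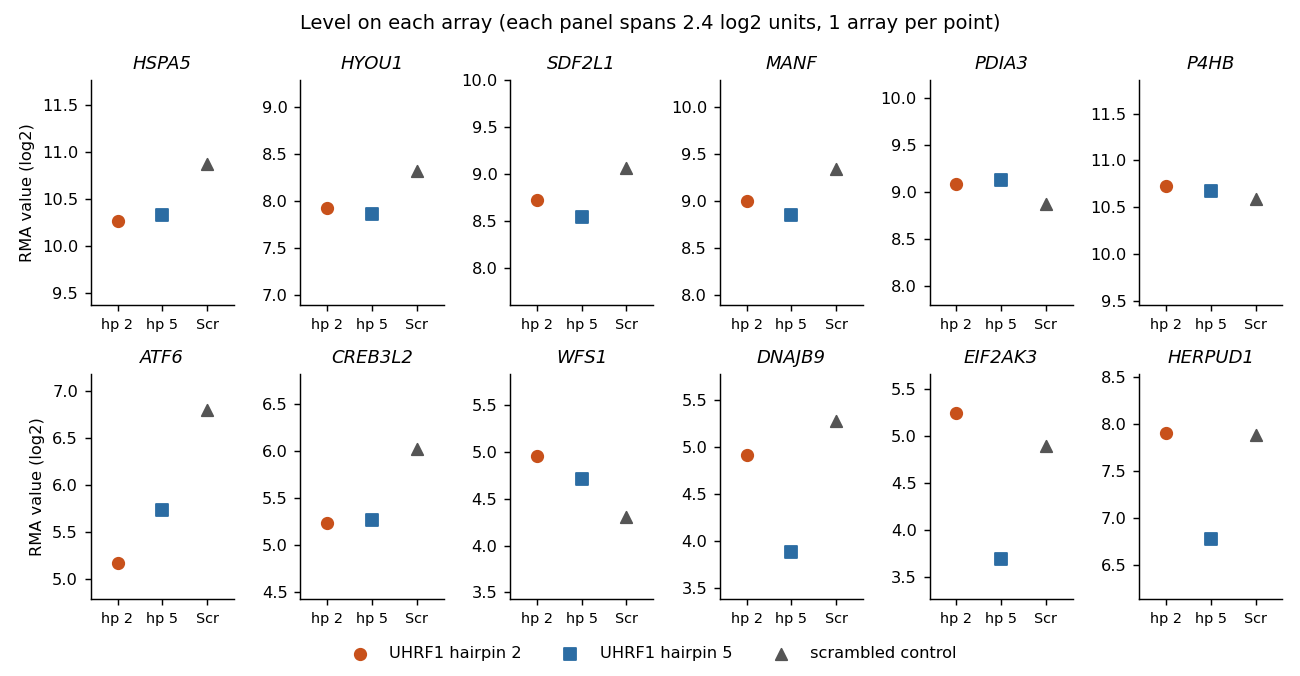
RMA value (log2, vertical axis) of 12 members on each array, from left to right hairpin 2, hairpin 5 and the scrambled control (Scr), 1 point per array, with every panel spanning the same range. HSPA5, HYOU1, SDF2L1 and MANF read lower on both hairpin arrays than in the control, PDIA3 and P4HB slightly higher, and DNAJB9, EIF2AK3 and HERPUD1 lowest with hairpin 5.

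Many ER chaperone promoters carry a known element, so the promoters of the members were read to show which genes share it. RefSeq promoters of assembly GRCh38.p14, from 250 bases before to 50 bases after the start, were found for 31 of the 34 members, 38 starts in all. Only exact matches within this window were counted, so near matches and sites elsewhere are neither listed nor marked. The ER stress response element, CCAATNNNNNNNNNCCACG, was searched on both strands and found in 7 of the 31 members, against 25 of 27305 genes with a promoter (0.0916%): HSPA5, HSP90B1, CALR, CANX, PDIA6, CRELD2 and XBP1. Its second form, ATTGGNCCACG, was found in 3 members, HYOU1, SDF2L1 and HERPUD1, and in 0.0696% of all genes. The unfolded protein response element TGACGTGG was found in HYOU1 (0.927% of all genes), where it overlaps one of that gene's matches to the second form. The cyclic AMP response element TGACGTCA was found in CREB3L2 and PPP1R15A (2.25% of all genes) and reads the same on both strands.

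The upstream bases of 7 of these promoters are given 5′ to 3′ in the direction of the gene, with the element in capitals; in HSP90B1, CALR, HYOU1 and SDF2L1 it lies on the opposite strand and appears as its reverse complement. HSPA5 is shown from −250 to −1, and the others as the element nearest the start with 20 bases on each side.
HSPA5, chr9:125241344-125241593, minus strand: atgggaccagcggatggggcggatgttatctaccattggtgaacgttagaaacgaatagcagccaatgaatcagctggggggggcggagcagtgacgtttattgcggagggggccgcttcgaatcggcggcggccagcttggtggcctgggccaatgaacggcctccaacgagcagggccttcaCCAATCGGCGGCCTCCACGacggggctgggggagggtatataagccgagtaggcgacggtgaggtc
HSP90B1, chr12:103930301-103930359, plus strand: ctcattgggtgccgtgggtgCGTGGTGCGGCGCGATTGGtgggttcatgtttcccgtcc
CALR, chr19:12938364-12938422, plus strand: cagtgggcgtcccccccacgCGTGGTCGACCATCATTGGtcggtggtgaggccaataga
CANX, chr5:179698758-179698816, plus strand: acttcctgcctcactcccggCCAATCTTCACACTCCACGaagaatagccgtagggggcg
HYOU1, chr11:119057254-119057304, minus strand: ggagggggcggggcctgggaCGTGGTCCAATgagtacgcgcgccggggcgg
SDF2L1, chr22:21642094-21642144, plus strand: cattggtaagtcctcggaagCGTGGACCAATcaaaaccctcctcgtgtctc
HERPUD1, chr16:56932005-56932055, plus strand: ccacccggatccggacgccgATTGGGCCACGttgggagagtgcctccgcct

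The genes that share the first element did not read alike on their brightest probe sets. Of the 7 members with it, 2 read below the control with both hairpins, HSPA5 and HSP90B1, and 2 read above it, CALR and CANX. Their mean differences ran from −0.58 to 0.19, with a median of −0.01. The sides depend on the probe set. With all probe sets averaged, CALR read below the control with both hairpins (−0.05 and −0.15), and HSP90B1 differed by −0.01 and −0.21. CANX stayed above, by 0.18 and 0.19. Of the 3 members with the second form, HYOU1 and SDF2L1 read below the control with both hairpins, while HERPUD1 did so with hairpin 5 alone. A match shows that the letters are present in this window and says nothing about binding in these cells.

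Among the sensors and factors, ATF6 and CREB3L2 had the lowest means. ATF6, the Golgi-cleaved sensor, read 5.17 with hairpin 2 and 5.73 with hairpin 5, against 6.80 in the control, or 3.09-fold and 2.10-fold lower (mean difference −1.35 ± 0.39, unadjusted p = 0.0073, adjusted p = 0.999 in limma). CREB3L2, a membrane-bound transcription factor related to ATF6 that drives genes of the secretory pathway, read 5.23 and 5.26 against 6.02 in the control (−0.77 ± 0.02, unadjusted p = 0.0285, adjusted p = 0.999 in limma). For both genes the hairpin arrays lay well apart from the control on that probe set. The other probe sets did not share this size. ATF6 had 3 more, with mean differences of −0.32, −0.08 and 0.16, and the mean over all 4 was −0.40. CREB3L2 had 2 more, at 0.12 and 0.07, both reading below 3 on every array, and the mean over its 3 was −0.20.

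The other 2 sensors differed between the hairpins. EIF2AK3, the eIF2alpha kinase, read 5.25 with hairpin 2 and 3.69 with hairpin 5, against 4.90 in the control, so that hairpin 2 was 1.27-fold higher and hairpin 5 was 2.31-fold lower. The hairpin difference of 1.56 was the largest of any member, and the mean of −0.43 ± 1.10 says little. ERN1, the kinase and endonuclease that splices XBP1 mRNA, read 4.04 and 3.62 against 4.41 in the control (−0.58 ± 0.29). One of its 2 other probe sets read 4.20 with hairpin 2 against 3.89 in the control, above it, and 3.41 with hairpin 5. XBP1, its target transcript, read 5.55 and 5.33 against 5.49 in the control. The arrays report the total XBP1 transcript at this probe set, and spliced and unspliced forms were not told apart here.

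WFS1, an ER membrane glycoprotein that restrains ATF6 signalling, had the highest mean difference of any member. It read 4.96 with hairpin 2 and 4.71 with hairpin 5, against 4.31 in the control, or 1.57-fold and 1.33-fold higher (mean difference 0.53 ± 0.17). Its second probe set also read higher, 4.07 and 4.12 against 3.79 in the control. The phosphatase subunits that reverse eIF2alpha phosphorylation were close to the control: the stress-induced PPP1R15A by −0.05 and −0.27, and the constitutive PPP1R15B by 0.02 and −0.28. ATF6B, the ATF6 paralog, differed by −0.16 and 0.05, and the membrane-bound factor CREB3 by 0.34 and −0.39. The median over the 10 sensors and factors was −0.02 with hairpin 2 and −0.34 with hairpin 5.

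In ER-associated degradation, EDEM2 was the member that read lower with both hairpins by the widest margin, and HERPUD1 was lower with hairpin 5 alone. EDEM2, which starts the mannose trimming that marks misfolded glycoproteins, read 5.14 and 4.94 with hairpins 2 and 5, against 5.60 in the control (mean difference −0.56 ± 0.14). Its relative EDEM1 read 4.77 and 4.27 against 4.87 in the control, 1.08-fold and 1.52-fold lower. HERPUD1, a stress-induced membrane protein of the degradation complex, read 7.90 with hairpin 2 and 6.78 with hairpin 5, against 7.89 in the control. Hairpin 2 thus matched the control while hairpin 5 was 2.16-fold lower (mean difference −0.55 ± 0.80). The other HERPUD1 probe set, dimmer, did not share this: it read 2.74 with hairpin 2 and 3.15 with hairpin 5, against 2.97 in the control.

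The remaining genes of this role, on their brightest probe sets, lay within 0.31 of the control with each hairpin. Some of their other probe sets reached further with hairpins 2 and 5: DERL2 at −0.61 and 0.04, DERL1 at −0.34 and −0.61, and SEL1L at −0.27 and 0.41. SEL1L, the adaptor of the SYVN1 ligase, differed by −0.19 and −0.06. Among the derlins, which help to pull proteins back out of the ER, DERL2 differed by −0.20 and −0.28, DERL1 by 0.19 and −0.01 and DERL3 by 0.06 and 0.31. SEC61B, a subunit of the channel through which proteins enter the ER, read 10.22 and 10.15 against 10.27 in the control. The median over the 8 measured genes was −0.08 with hairpin 2 and −0.20 with hairpin 5.

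The arrays of the hairpins can also be set against each other without the control. Hairpin 5 read below hairpin 2 for 24 of 33 members, where 61.0% of all genes tested did so. The SD between hairpins had a median of 0.15 over members and 0.18 over all genes tested. Among members it was largest for EIF2AK3, HERPUD1, DNAJB9, CREB3 and DNAJC3, each above 0.5, and hairpin 5 was the lower in each. How many of all genes tested exceeded 0.5 was not counted. Each hairpin has 1 array, so what belongs to the hairpin and what to its culture or array cannot be told apart.

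Several members were measured by more than 1 probe set, and these did not always give the same picture. Of 33 members, 24 had several probe sets. As the mean of the hairpins, HSPA5, DNAJB9, ERN1, HERPUD1, DERL2, PDIA4, PPP1R15A and SEC61B had every difference below 0. P4HB, WFS1 and DERL3 had every one above 0. Single hairpins could differ in sign, as on the dimmer HERPUD1 probe set (−0.235 with hairpin 2 and 0.175 with hairpin 5) and a DERL3 probe set (−0.49 and 0.51). DNAJC3 and EIF2AK3 were the 2 members with probe sets at least 0.25 from the control on both sides. The dimmer EIF2AK3 probe set, at 2.66 and 2.65 with the hairpins against 2.32 in the control, read higher with both. PDIA3 read 0.23 higher on its brightest probe set, while the other 2 gave −0.59 and −0.50. PDIA6 had 1 of 4 probe sets at −0.50, with the other 3 between −0.10 and 0.05, and DERL1 ranged from −0.47 to 0.09 over 4. Over all 78 member probe sets the medians were −0.03 for hairpin 2 and −0.10 for hairpin 5, against 0.00 and 0.01 over the 41091 probe sets of 1 gene.

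**Figure D4:**
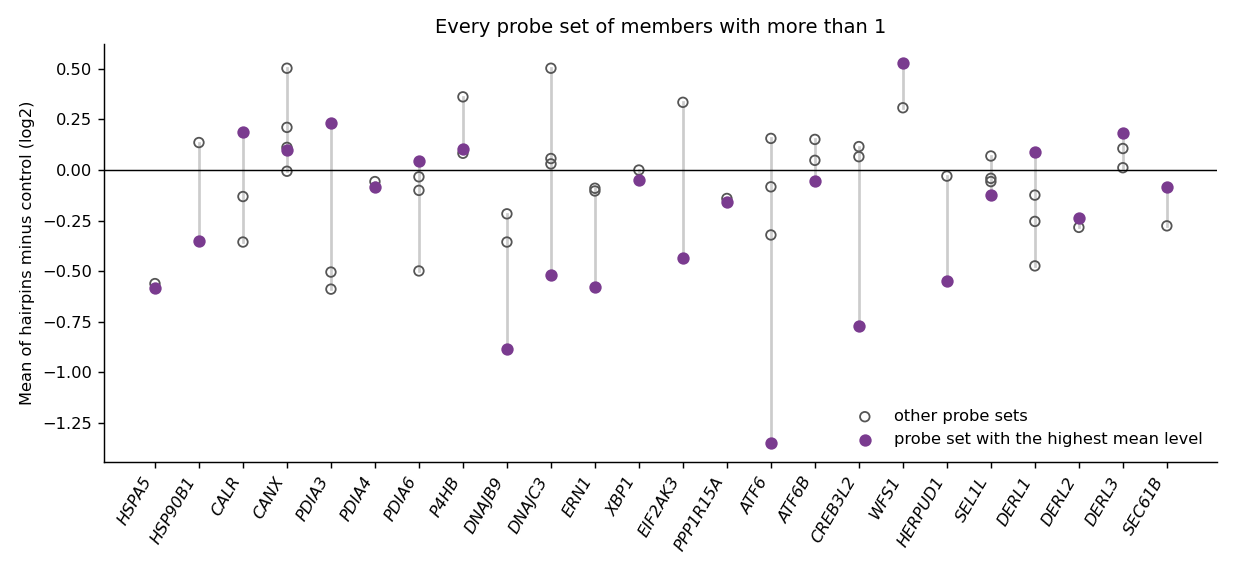
Mean of the hairpins minus the control (log2, vertical axis) for every probe set of the 24 members with more than 1, the filled point being the probe set with the highest mean level. HSPA5 has both points near −0.57, whereas ATF6 spans −1.35 to 0.16.

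Other genes of the same pathways were read from 4 further lists, and 0 of their genes passed limma after adjustment. Without adjustment, at p under 0.05, 2 of 25 folding enzymes, 1 of 22 translocation genes, 0 of 27 degradation genes and 2 of 20 regulators were lower (background 1.57%). The counts of genes at least 1.5-fold lower or higher that follow stand beside backgrounds of 4.12% and 2.38%. Of 25 tested enzymes of ER folding that are not members, 3 were at least 1.5-fold lower as the mean of the hairpins and 0 higher, and the medians were −0.02 with hairpin 2 and −0.21 with hairpin 5. The 3 were TMX4, FKBP14 and SIL1, picked out after their values were seen. UGGT1, which sends unfolded glycoproteins back to CALR and CANX, read 6.85 and 6.94 against 7.27 in the control, and ERO1A, the oxidase that recharges the isomerases, read 7.15 and 7.33 against 7.48. Of 22 genes of translocation and signal peptide cleavage, 3 were 1.5-fold lower and 0 higher, with medians of −0.15 and −0.21. These were SEC63, SPCS3 and SEC11C, again picked after their values were seen, while the channel subunit SEC61A1 differed by 0.08 and 0.15.

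Of 27 other genes of ER-associated degradation, 2 were 1.5-fold lower, HERPUD2 and UBE2J1, both named after their values were seen, and 0 higher, with medians of 0.03 and −0.15. The lectin OS9 differed by −0.11 and 0.00, and VCP, the ATPase that extracts substrates, by 0.41 and 0.16. Of 20 other regulators of the response, 3 were 1.5-fold lower, DDIT3, TRIB3 and, named after its value was seen, MBTPS2, and 0 higher, with medians of −0.05 and −0.13. The lowest differences from the control in this list were those of DDIT3 and TRIB3. DDIT3 read 7.228 and 6.559 with the hairpins against 8.597 in the control, and TRIB3 read 6.56 and 6.58 against 8.34. ATF4, which induces both, differed by −0.32 with each hairpin. MBTPS1, a protease that cuts ATF6, differed by −0.10 and −0.03, and MBTPS2 by −0.86 and −0.38.

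Cytosolic chaperones, read for contrast, lay mostly on the other side of the control. Of 25 listed, 20 had a probe set that names no other gene, and the Hsp70 genes HSPA1A, HSPA1B and HSPA8 did not. Of 20 tested, both hairpin arrays read above the control for 14 (background 29.0%) and below it for 2 (background 32.3%), with medians of 0.21 with hairpin 2 and 0.22 with hairpin 5. None was 1.5-fold from the control as the mean of the hairpins. The difference between these lists and the members was not tested.

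**Figure D5:**
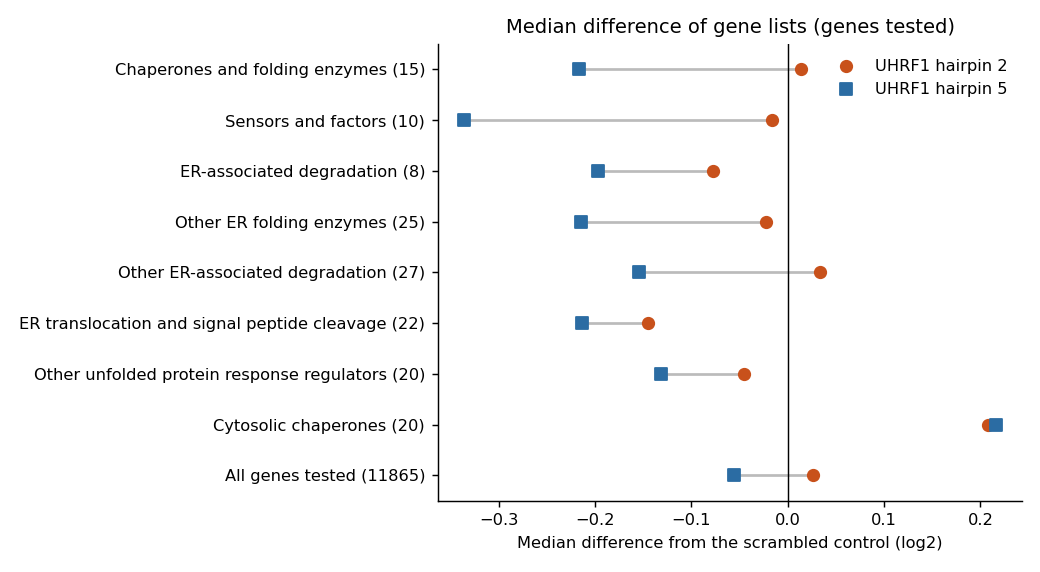
Median difference from the scrambled control (log2, horizontal axis) with hairpin 2 (circles) and hairpin 5 (squares) for the 3 roles, 5 further lists and all genes tested, with the number of genes tested in brackets. The ER lists have hairpin 5 medians between −0.34 and −0.13, and the cytosolic chaperones have medians of 0.21 and 0.22.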

How the data were processed

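RNA from 3 samples was measured on single-colour Affymetrix arrays. The deposited log2 values came from RMA in Affymetrix Expression Console, according to the submitters' processing notes; versions, settings and centring are not given in the sources used here. Their range gave the log base. The array table gives no detection calls.

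Probe sets were named through the platform annotation, checked against RefSeq symbols (GRCh38.p14). Of 54613 probe sets, 41091 named 1 gene; 4 that listed a member among several genes were left out. The brightest probe set on average stood for each gene, and genes at or above the 40th percentile were tested.

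Because GEO gives both hairpins 1 source label, they were fitted as 2 replicates against 1 control. The fit used limma 3.58.1 under R 4.3.3 (lmFit, eBayes), with two-sided p-values adjusted by Benjamini and Hochberg's method. The fit has 1 residual degree of freedom per gene, 5.77 after moderation, and takes the spread of the lone control to equal that of the hairpin arrays. An exact permutation over 3 splits cannot go below p = 0.333. Counts past 1.5-fold and 2-fold carry no test.

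The named genes were all members, UHRF1 and a few genes of other lists set by name; others named in small counts are marked. TXNDC5, also on that list, shared its probe set with another gene. Members and lists were chosen with earlier results of these data known. Alternatives were other probe set summaries, filters, scalings, variance priors and thresholds, and leaving out each hairpin. A planned look at protein C-termini was not run, as no protein sequences were used here.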

Additional observations from a re-analysis of the deposited data

How the results depend on the processing

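No member passed limma under any alternative run: other filters, probe set summaries, scalings, an intensity trend, a robust prior or an adjusted p of 0.1. UHRF1 did not pass in the main fit either, so this does not show that members were unchanged. As the mean of the hairpins, 3 members were at least 1.5-fold lower. The count was 0 with all probe sets of a gene averaged and 5 with median centring. It was 1 of 26 without probe sets ending in _x_at or _s_at, and 1 at 2-fold. It ran from 3 to 9 when each hairpin was left out. The share of all genes past a fold was not counted under other summaries, filters or scalings, here or for each hairpin below. HSPA5 and ERN1, both at −0.58, lie just short of the 1.5-fold line. The count of higher members ran from 0 to 1 when each hairpin was left out. For hairpin 2, the 3 lower members became 0 with the mean of probe sets and 1 at 2-fold, and the 1 higher member became 0 with the mean of probe sets, with the filter at the 60th percentile and at 2-fold. For hairpin 5, the 9 lower members became 3 with the mean of probe sets, 5 of 26 with the filter at the 60th percentile and 4 at 2-fold. The median of the chaperones (−0.08) ran from −0.217 to 0.014 when each hairpin was left out, so its sign rests on hairpin 5. That of ER-associated degradation (−0.18) ran from −0.197 to −0.077, and was −0.30 over the 6 genes left without _x_at and _s_at probe sets. Of single members, the sign of the mean difference turned for 6 of 33 with the mean of probe sets (CALR, PDIA3, PDIA6, DNAJC3, ATF6B and DERL1), for 5 of 28 without _x_at and _s_at probe sets, for 1 with cyclic loess (CRELD2) and for 0 with median centring. It turned for 4 when the hairpin 2 array was left out and for 7 when the hairpin 5 array was (PDIA4, CRELD2, XBP1, EIF2AK3, PPP1R15B, CREB3 and HERPUD1). The cause was not tested. No paired analysis was possible because there is 1 control array and the labels give no replicate numbers.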
